A study of Mus musculus with 4 samples.

Results

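The 34 genes examined here encode enzymes of cholesterol and fatty acid synthesis and the proteins that control them, out of 32285 genes counted in mouse kidney single-cell RNA-Seq libraries. They were chosen by symbol as genes under sterol regulatory element-binding protein (SREBP) control, and comprise 17 sterol genes, 12 fatty acid genes and 5 regulators. All 34 symbols were found in the files. The study asked how a high-fat diet (HFD) and the loss of SGLT2 function alter kidney cells. Whole kidneys came from male C3H mice (C3H/HeJ in the study's methods) that were 18 weeks old and had been on a normal diet (ND) or HFD, with 60% of calories from fat, for 8 weeks from 10 weeks of age. Wild-type (WT) mice were compared with Sweet Pee (SP) mice, which are homozygous for a germline missense mutation of Slc5a2, the gene of the glucose transporter SGLT2, in every cell of the body. Each combination of genotype and diet was 1 library (WT-ND and SP-ND, WT-HFD and SP-HFD), and how many mice were used for each is not given in the sources used here.

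SREBPs are membrane-bound transcription factors of the endoplasmic reticulum. When sterols are scarce, SCAP escorts them to the Golgi, where proteases release the active part, whereas INSIG proteins retain the complex when sterols are plentiful. SREBP-2 mainly drives cholesterol synthesis and SREBP-1c mainly drives fatty acid synthesis, which also responds to insulin and to polyunsaturated fat in the diet. In the kidney, the proximal tubule (PT) burns fatty acids for energy and is the site where SGLT2 takes up filtered glucose.

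Because SREBPs and the factor NF-Y are known to act side by side at such promoters, the 250 bases before each transcription start were taken from RefSeq (GRCm38.p6) for the 27 members with an entry, which have 37 start windows in all. Scd1, Scd2, Sqle, Fdft1, Fdps, Fads1 and Stard4 had no entry and were not searched. Some windows overlapped annotated exons, up to all 250 bases for Idi1. The sterol regulatory element core TCACNCCAC was searched on both strands and lay in 1 of the 37 windows, that of Hmgcs1, against 1.05% of all 32851 windows of the same length. The NF-Y motif CCAAT lay in 59.5% of the member windows and in 33.8% of all windows. Both searches matched exact letters only, and a window without a match says nothing about binding. Windows of an early mevalonate enzyme (Hmgcs1, chr13:119690101-119690350, plus strand), a later mevalonate enzyme (Mvd, chr8:122443423-122443672, minus strand), the feedback regulator with the largest PT ratio among regulators (Insig1, chr5:28071162-28071362, plus strand) and fatty acid synthase (Fasn, chr11:120824548-120824797, minus strand) are shown 5′ to 3′ on the gene's strand. Capitals mark the motif matches, CCAAT reading ATTGG on the other strand, and the Insig1 window stops after 201 bases, where an annotated exon begins. The element in Hmgcs1 starts 137 bases before the start site and lies between the CCAAT matches, of which this window has 3.
Hmgcs1: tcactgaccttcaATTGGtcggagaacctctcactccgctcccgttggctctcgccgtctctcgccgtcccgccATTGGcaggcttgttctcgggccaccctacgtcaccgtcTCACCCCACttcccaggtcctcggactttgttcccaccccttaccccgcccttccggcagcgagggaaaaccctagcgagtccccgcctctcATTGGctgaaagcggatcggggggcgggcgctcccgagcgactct
Mvd: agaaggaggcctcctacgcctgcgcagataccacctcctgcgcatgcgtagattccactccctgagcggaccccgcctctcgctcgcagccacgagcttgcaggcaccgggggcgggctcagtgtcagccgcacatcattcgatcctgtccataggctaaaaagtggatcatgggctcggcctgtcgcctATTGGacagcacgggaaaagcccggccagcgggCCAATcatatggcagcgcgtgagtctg
Insig1: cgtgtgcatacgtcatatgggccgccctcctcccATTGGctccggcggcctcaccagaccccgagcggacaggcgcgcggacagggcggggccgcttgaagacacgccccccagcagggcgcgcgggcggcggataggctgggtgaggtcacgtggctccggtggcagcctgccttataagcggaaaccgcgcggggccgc
Fasn: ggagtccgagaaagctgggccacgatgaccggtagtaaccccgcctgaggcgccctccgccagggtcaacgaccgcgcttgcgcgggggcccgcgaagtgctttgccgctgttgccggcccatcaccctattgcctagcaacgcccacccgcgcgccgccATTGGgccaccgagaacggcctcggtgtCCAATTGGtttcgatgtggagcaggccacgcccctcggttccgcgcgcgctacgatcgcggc

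Values are unique molecular identifiers (UMIs) of a gene as counts-per-million (CPM) over the pooled cells of a class, with 95% exact Poisson intervals. Each UMI marks 1 captured transcript near its 3′ end, so the values were not divided by gene length. How evenly genes were captured and counted was not tested, so levels of different genes are compared only as counted. Since each condition was a single library, replicate error could not be measured. Intervals therefore cover counting error only, no p-value is given, and a difference between conditions cannot be told apart from a difference between libraries. After filtering, 6389 to 9924 cells remained per library, and 0.384% to 0.522% of barcodes were shared between pairs of libraries. SP-ND stood apart in quality, since 49.8% of its barcodes had at least 50% mitochondrial UMIs and were removed, against 32.7% to 42.1% in the others. Cells were clustered without the member genes and named from marker genes, and 11 classes had at least 50 cells in every library. On ND the PT-like class held 2073 WT and 960 SP cells, with a median of 9208 and 14973.5 UMIs, and on HFD 1119 WT and 627 SP cells, with a median of 10041 and 12625 UMIs. Slc5a2 was at 319 CPM in WT-ND, 262 CPM in WT-HFD, 56.0 CPM in SP-ND and 99.4 CPM in SP-HFD in these cells, although a missense allele need not lower the transcript.

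In PT-like cells the sum of the sterol genes stood highest in SP-ND, and the sums of the other libraries were close to each other. The sum of the 17 sterol genes was 578 CPM in WT-ND, 548 CPM in WT-HFD, 957 CPM in SP-ND and 622 CPM in SP-HFD. The log2 ratio of SP-ND to WT-ND was 0.73 (95% interval 0.69 to 0.76), and that of SP-HFD to SP-ND was −0.62 (−0.67 to −0.58). The WT libraries differed by far less, with a log2 ratio of HFD to ND of −0.08 (−0.12 to −0.04), and SP-HFD exceeded WT-HFD by 0.18 (0.13 to 0.23). Within the WT sums, single genes moved in opposite directions. Hmgcs1 was at 185 CPM in WT-ND and 107 CPM in WT-HFD, and Cyp51 at 51.9 CPM and 108 CPM. The sum of the regulators had the same order of libraries as the sterol sum, although single regulators differed in order. This regulator sum was 100.1 CPM in WT-ND, 96.2 CPM in WT-HFD, 178 CPM in SP-ND and 101 CPM in SP-HFD, with WT-ND and SP-HFD nearly level. The sum of the 12 fatty acid genes was 1144 CPM in WT-ND, 1049.6 CPM in WT-HFD, 1385 CPM in SP-ND and 1112 CPM in SP-HFD. Idh1 and Me1, which supply NADPH, made up 68.8% to 77.5% of that sum, and the other 10 genes together were at 283 CPM, 248 CPM, 432 CPM and 250.1 CPM in the same order of libraries. Their log2 ratio of SP-ND to WT-ND was 0.61 (0.56 to 0.66).

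Gene by gene, 33 members averaged at least 5 CPM over the 4 libraries in PT-like cells and were compared, and Scd1 was below that level. Without SP-ND, Scd2, Lss and Mvk averaged below 5 CPM, so they were compared only through their SP-ND values. They are among the members counted below as highest in SP-ND and as higher in SP-ND than in WT-ND. They are also among those counted as lower in SP-HFD than in SP-ND, and they enter the medians. Of the 33 members, 27 had their highest value in SP-ND, whereas 34.7% of all 8347 genes compared did. A gene was counted as different when its CPM differed at least 1.5-fold. Between SP-ND and WT-ND, 20 members were higher in SP-ND, against 2.96% of all genes, and 0 were lower, against 2.12%. Between SP-HFD and SP-ND, 0 were higher in SP-HFD, against 7.93% of all genes, and 20 were lower, against 6.41%. These comparisons share the SP-ND library and are not separate evidence. Between WT-HFD and WT-ND, 3 were higher in WT-HFD, against 6.27%, and 7 were lower, against 3.98%. Between SP-HFD and WT-HFD, 0 were higher in SP-HFD, against 1.52%, and 2 were lower, against 0.767%. Scd2 is among the 3 members higher in WT-HFD and among the 2 lower in SP-HFD, although it was below 5 CPM in the libraries compared. Both of these Scd2 ratios changed sign without integration. The median log2 ratio of the members was 0.80 for SP to WT on ND, −1.27 for HFD to ND in SP, −0.25 for HFD to ND in WT and 0.08 for SP to WT on HFD, while the medians over all genes lay between 0.01 and 0.07.

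**Figure D1:**
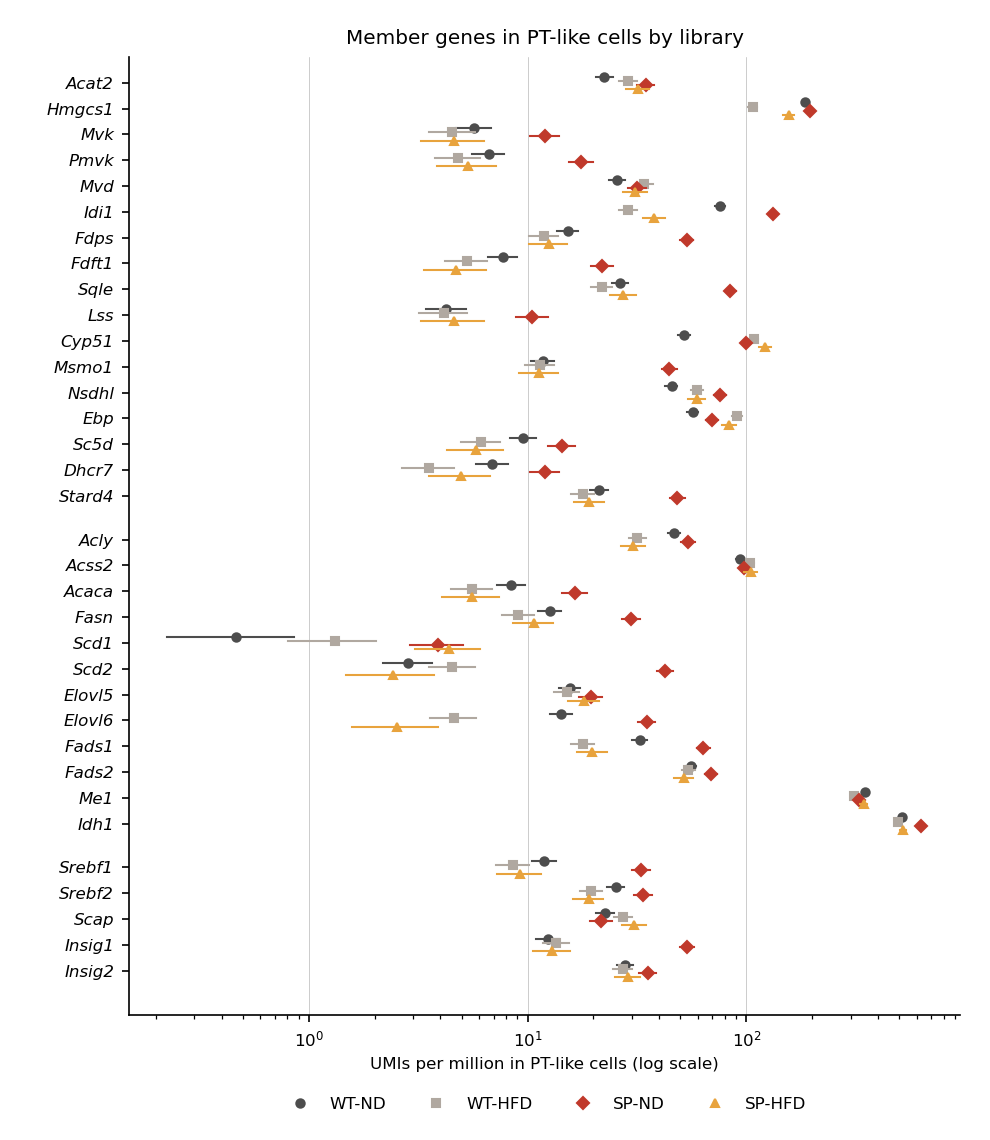
Counts-per-million (CPM) of each member gene in PT-like cells (log axis), with 1 point per library and bars for the 95% Poisson interval, in the order sterol genes, fatty acid genes, regulators. SP-ND lies to the right of the other libraries for 27 of the 33 members compared, while Cyp51, Ebp and Scap are highest on HFD.

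Among the mevalonate enzymes, which turn acetyl-CoA into isoprenoid units, Idi1 and the kinases differed most between libraries and Mvd least. Hmgcs1, which makes HMG-CoA, was at 185 CPM in WT-ND, 107 CPM in WT-HFD, 195 CPM in SP-ND and 156 CPM in SP-HFD. It was lower on HFD in both genotypes, with log2 ratios of −0.79 (−0.87 to −0.70) in WT and −0.32 (−0.42 to −0.23) in SP, and nearly level between genotypes on ND (0.08, 0.01 to 0.15). Idi1, which isomerizes isopentenyl diphosphate, was at 75.7 CPM in WT-ND, 28.8 CPM in WT-HFD, 132 CPM in SP-ND and 37.9 CPM in SP-HFD. It was lower on HFD in both genotypes, by log2 ratios of −1.39 in WT and −1.80 in SP, and higher in SP-ND than in WT-ND by 0.80. Mvk and Pmvk, the mevalonate kinases, were below 20 CPM in every library and higher in SP-ND than in WT-ND by 1.08 (0.73 to 1.42) and 1.40 (1.10 to 1.71). Mvd, the decarboxylase that follows them, ranged only from 25.7 CPM in WT-ND to 34.2 CPM in WT-HFD. Acat2, a cytosolic thiolase, ranged from 22.5 CPM in WT-ND to 34.7 CPM in SP-ND. Its near-identical copy Acat3, which is no member, was at 13.8 CPM in WT-ND, 52.1 CPM in WT-HFD, 11.2 CPM in SP-ND and 53.6 CPM in SP-HFD, and reads of the pair may have been split or lost in counting.

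Msmo1, Fdps, Sqle and Fdft1 had the widest ratios of SP-ND to WT-ND of the sterol list. Fdps, which makes farnesyl diphosphate, was at 15.3 CPM in WT-ND, 11.8 CPM in WT-HFD, 53.3 CPM in SP-ND and 12.5 CPM in SP-HFD. Sqle, the epoxidase that is a rate-limiting step of the pathway, was at 26.5 CPM in WT-ND, 21.9 CPM in WT-HFD, 84.3 CPM in SP-ND and 27.4 CPM in SP-HFD. Msmo1, which removes methyl groups from sterol C4, was at 11.7 CPM in WT-ND, 11.4 CPM in WT-HFD, 44.5 CPM in SP-ND and 11.3 CPM in SP-HFD. For each of these genes SP-ND stood well above the other libraries, whose values lay close together. The log2 ratios of SP-ND to WT-ND were 1.80 (1.61 to 2.00) for Fdps, 1.67 (1.52 to 1.82) for Sqle and 1.93 (1.71 to 2.14) for Msmo1. Fdft1 (squalene synthase) and Lss (lanosterol synthase) were scarcer, at 21.9 CPM and 10.5 CPM in SP-ND, and exceeded WT-ND by 1.51 (1.23 to 1.79) and 1.31 (0.92 to 1.70). Stard4, a sterol carrier protein, was at 48.4 CPM in SP-ND and at 17.9 to 21.3 CPM in the other libraries.

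Among the other enzymes after squalene, Cyp51 and Ebp were not highest in SP-ND, whereas Nsdhl, Sc5d and Dhcr7 were. Cyp51, the lanosterol demethylase, was at 51.9 CPM in WT-ND, 108 CPM in WT-HFD, 99.2 CPM in SP-ND and 122 CPM in SP-HFD, so that WT-ND was the low library and HFD was higher than ND in both genotypes (log2 1.06 in WT and 0.30 in SP). Ebp, a sterol isomerase, was likewise lowest in WT-ND, at 56.9 CPM, and highest in WT-HFD, at 90.8 CPM. Nsdhl, which acts with Msmo1, was at 45.5 CPM in WT-ND, 59.6 CPM in WT-HFD, 75.8 CPM in SP-ND and 59.4 CPM in SP-HFD. The last steps, Sc5d and Dhcr7, were lower on HFD in both genotypes, with Sc5d at 9.58 CPM in WT-ND, 6.12 CPM in WT-HFD, 14.3 CPM in SP-ND and 5.82 CPM in SP-HFD. Dhcr7 was at 6.91 CPM, 3.55 CPM, 12.0 CPM and 4.97 CPM in the same order. In all, 13 of the 17 sterol genes were at least 1.5-fold higher in SP-ND than in WT-ND, against 2.96% of all genes. These include Lss and Mvk, which were compared only through their SP-ND values.

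In the fatty acid list, Scd2 and Elovl6 varied most among the genes compared, and Acss2, Me1 and Idh1 least. Scd2, a stearoyl-CoA desaturase, was at 2.85 CPM in WT-ND, 4.54 CPM in WT-HFD, 42.5 CPM in SP-ND and 2.42 CPM in SP-HFD. SP-ND exceeded WT-ND by a log2 ratio of 3.90 (3.52 to 4.30), the widest of the 33 members compared. Scd2 entered that comparison only through its SP-ND value. Its relative Scd1 had 10 to 54 UMIs per library, at 0.467 CPM in WT-ND, 1.32 CPM in WT-HFD, 3.89 CPM in SP-ND and 4.36 CPM in SP-HFD. Elovl6, which lengthens palmitate, was at 14.2 CPM in WT-ND, 4.61 CPM in WT-HFD, 35.0 CPM in SP-ND and 2.54 CPM in SP-HFD. It was the gene with the widest HFD difference in WT (log2 −1.62, −2.02 to −1.24) and was also lower on HFD in SP (−3.78, −4.49 to −3.15). Fads1, a desaturase of polyunsaturated fatty acids, was lower on HFD in both genotypes too, at 32.5 CPM in WT-ND, 17.8 CPM in WT-HFD, 63.5 CPM in SP-ND and 19.8 CPM in SP-HFD.

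The enzymes of palmitate synthesis itself were scarce in PT-like cells, as in the other classes. In WT-ND the highest class held 17.0 CPM of Fasn (thin limb-like) and 11.8 CPM of Acaca (principal and connecting tubule-like). In SP-ND PT-like cells were the highest class for both. Fasn was at 12.6 CPM in WT-ND, 9.08 CPM in WT-HFD, 29.7 CPM in SP-ND and 10.7 CPM in SP-HFD. Acaca, the acetyl-CoA carboxylase before it, was at 8.41 CPM in WT-ND, 5.59 CPM in WT-HFD, 16.4 CPM in SP-ND and 5.57 CPM in SP-HFD. Both were highest in SP-ND, and lower on HFD in each genotype by point value. Acly, which makes cytosolic acetyl-CoA from citrate, was at 46.7 CPM and 54.1 CPM on ND (WT and SP) and at 31.7 CPM and 30.3 CPM on HFD. Acss2, which makes acetyl-CoA from acetate, stayed between 93.5 CPM and 105 CPM in the 4 libraries. Idh1 ranged from 491 to 625 CPM and Me1 from 311 to 347 CPM. Fads2 and Elovl5 differed less than 1.5-fold in each of the 4 comparisons.

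Of the regulators, Insig1, the feedback inhibitor whose own gene is an SREBP target, was at 12.4 CPM in WT-ND, 13.6 CPM in WT-HFD, 53.7 CPM in SP-ND and 13.0 CPM in SP-HFD. The ratio, in log2, was 2.12 (1.91 to 2.32) for SP-ND to WT-ND and −2.05 (−2.36 to −1.76) for SP-HFD to SP-ND, whereas the WT libraries differed by 0.13 (−0.14 to 0.40). Srebf1, which encodes SREBP-1, was at 11.9 CPM in WT-ND, 8.56 CPM in WT-HFD, 32.95 CPM in SP-ND and 9.21 CPM in SP-HFD. Srebf2, which encodes SREBP-2, varied less, from 19.0 CPM in SP-HFD to 33.7 CPM in SP-ND. Scap, the escort protein, was at 21.7 CPM in SP-ND and 30.7 CPM in SP-HFD and thus did not share the order of Insig1. Insig2, the second INSIG gene, ranged from 27.2 CPM in WT-HFD to 35.5 CPM in SP-ND.

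**Figure D2:**
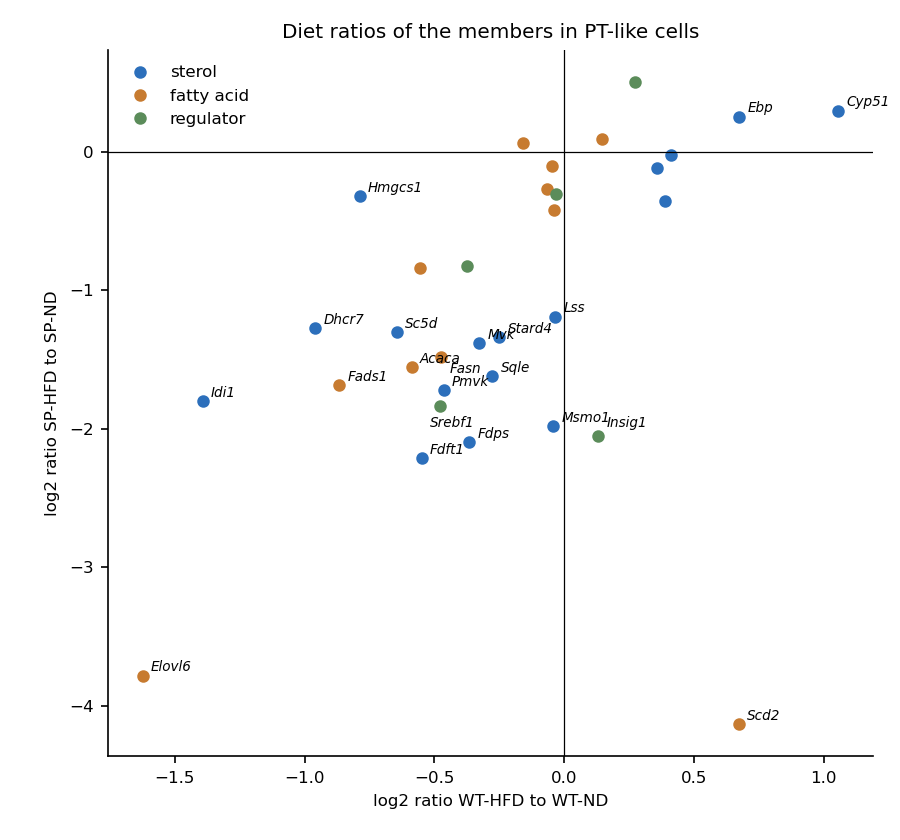
Log2 ratio of HFD to ND in PT-like cells for each of the 33 members compared, WT on the x axis and SP on the y axis, coloured by list, with names for genes past 1.5-fold in WT or past 2-fold in SP. Most members lie far below 0 in SP and nearer to 0 in WT. Elovl6 and Idi1 are low in both, and Cyp51 and Ebp are above 0 in both.

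PT-like cells fell mainly into a cluster of 2469 cells led by Slc5a12, a transporter of the early segments, and a cluster of 2232 cells led by Slc7a13, a transporter of the S3 segment. The rest formed a small cluster led by Cyp7b1, with Hmgcs1 at 225 CPM in WT-HFD, 278 CPM in SP-ND and 291 CPM in SP-HFD. Cyp51 was at 520 CPM, 358 CPM and 450 CPM there, whereas Fdps was at 34.6 CPM, 31.8 CPM and 10.6 CPM. These values rest on 2 to 85 UMIs each. The WT-ND part, with 1 UMI of Cyp51, was too small to compare. These clusters come from integrated data. Without integration PT-like cells separated almost wholly by diet. A cluster held 2104 WT and 930 SP cells on ND but 25 and 29 on HFD. Another held 14 and 5 cells on ND but 843 and 471 on HFD. Both were named PT-like from markers. Diet ratios within the Slc5a12-led and the Slc7a13-led cluster therefore compare cells that only integration placed together. The SP-ND difference of the sterol sum was wider in the Slc5a12-led cluster. The sterol sum in the Slc5a12-led cluster was 498 CPM in WT-ND, 490.0 CPM in WT-HFD, 1051 CPM in SP-ND and 553 CPM in SP-HFD. SP-ND exceeded WT-ND there by 1.08 on the log2 scale (1.03 to 1.13). In the Slc7a13-led cluster it was 647 CPM, 603 CPM, 866 CPM and 658 CPM, a ratio of 0.42 (0.37 to 0.47). Insig1 was at 12.6 CPM in WT-ND and 68.0 CPM in SP-ND in the Slc5a12-led cluster, and at 12.2 CPM and 41.6 CPM in the Slc7a13-led cluster. Idi1 was at 38.6 CPM and 117 CPM in the former and 107 CPM and 144 CPM in the latter. Hmgcs1 differed in direction, at 157 CPM in WT-ND and 210.1 CPM in SP-ND in the Slc5a12-led cluster, and 208 CPM and 181 CPM in the Slc7a13-led cluster. Elovl6 had the wider ratio in the Slc7a13-led cluster, with 5.72 CPM in WT-ND and 25.7 CPM in SP-ND, against 24.1 CPM and 46.4 CPM. Cyp51 in SP was lower on HFD in the Slc5a12-led cluster (102 CPM in SP-ND, 70.4 CPM in SP-HFD) and higher on HFD in the Slc7a13-led cluster (92.2 CPM, 164 CPM).

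**Figure D3:**
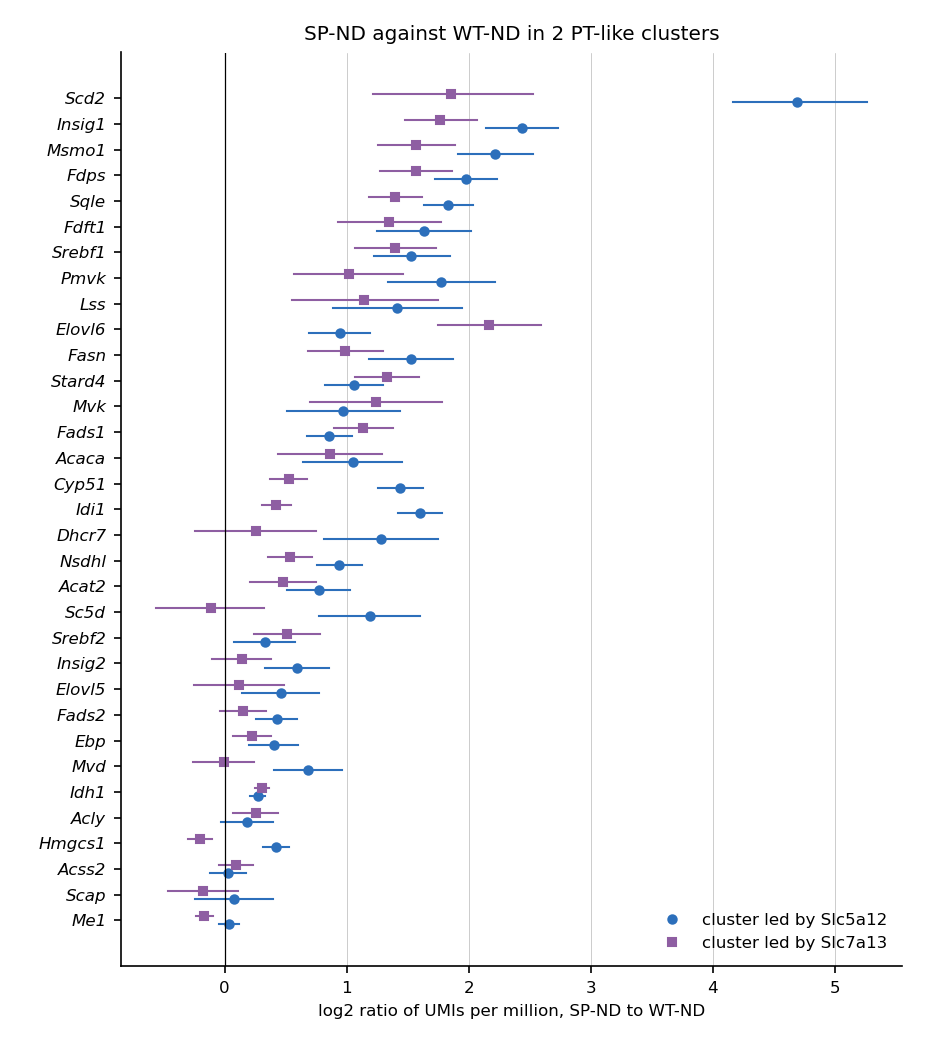
Log2 ratio of SP-ND to WT-ND for each of the 33 members compared, in the PT-like cluster led by Slc5a12 (circles) and the one led by Slc7a13 (squares), with 95% intervals from counts. Circles lie to the right of squares for most sterol genes, and Scd2 has the widest gap.

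Scd2 was concentrated in few cells of SP-ND, unlike Insig1 and Sqle. The 5% of SP-ND PT-like cells with the most Scd2 UMIs held 63.1% of its 591 UMIs, against 26.5% for Insig1 and 22.6% for Sqle. There were 73 SP-ND cells with 3 or more Scd2 UMIs, against 0 in WT-ND, 2 in WT-HFD and 0 in SP-HFD. Of these 73 cells, 94.5% belonged to the Slc5a12-led cluster, against 43.5% of the 777 SP-ND cells with no Scd2 UMI. Their sterol sum was 1467 CPM, against 911 CPM in the cells with no Scd2 UMI, and their Insig1 level 97.0 CPM against 49.5 CPM, at a median of 14119 and 15139 UMIs per cell. Their Slc5a12 level was 414 CPM against 99.7 CPM. These sets differ in cluster makeup, and they were not compared within a cluster. The 110 SP-ND cells with 1 or 2 Scd2 UMIs had a sterol sum of 950 CPM and Insig1 at 54.5 CPM. The 17 markers of distal, connecting and principal tubule and intercalated cells, classes with much Scd2, summed to 185 CPM in the 73 cells and 106 CPM in cells with no Scd2 UMI, and their part in the result was not tested. The 73 cells were picked by Scd2, so its own level in them is no finding. Scd2 in the Slc5a12-led cluster was at 3.14 CPM in WT-ND, 3.36 CPM in WT-HFD, 81.0 CPM in SP-ND and 2.57 CPM in SP-HFD, and in the Slc7a13-led cluster at 2.60 CPM, 5.81 CPM, 9.42 CPM and 2.38 CPM.

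The depth of PT-like cells differed between libraries, and SP-ND had the highest sterol sum and WT-HFD the lowest within matched ranges of depth, while the order of WT-ND and SP-HFD depended on the range. Among cells of 10000 to 20000 UMIs the sterol sum was 585 CPM in WT-ND, 537 CPM in WT-HFD, 959 CPM in SP-ND and 574 CPM in SP-HFD. Among cells of 5000 to 10000 UMIs it was 537 CPM, 528 CPM, 954 CPM and 619 CPM. Mitochondrial UMIs made up 37.1% of PT-like UMIs in SP-ND and 32.1% to 33.1% in the other libraries. Immunoglobulin and other B cell genes, a list of 6, moved with diet in PT-like cells, with 23.9 CPM in WT-ND, 130 CPM in WT-HFD, 2.95 CPM in SP-ND and 121 CPM in SP-HFD, of which 4, 6, 5 and 5 were detected. The 5 thick ascending limb genes, all detected, summed to 253 to 324 CPM. The 6 intercalated cell genes, all detected, were highest in WT-HFD, at 68.5 CPM against 21.7 to 27.9 CPM in the other libraries. So were the 5 distal convoluted tubule genes, at 56.3 CPM against 29.5 to 35.6 CPM. The 6 principal and connecting tubule genes were at 80.0 CPM in WT-HFD against 62.4 to 72.2 CPM. The 4 thin limb genes, all detected, were highest in SP-ND, as the sterol sum was, at 9.90 CPM in WT-ND, 21.4 CPM in WT-HFD, 39.8 CPM in SP-ND and 29.6 CPM in SP-HFD. The 5 markers of the S3 segment, all detected, were lowest in SP-ND, at 586 CPM against 769.7 to 971 CPM in the other libraries. The part of such foreign or free RNA and of the segments in the member values was not tested beyond a subtraction of free RNA given among the alternatives.

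Pathway genes outside the member list were compared in the same way. Among 17 other synthesis genes, 11 were compared and 2 were at least 1.5-fold higher in SP-ND than in WT-ND, and among 16 genes of sterol control and traffic 15 were compared and 1 was, against 2.96% of all genes. Lower on HFD in both genotypes were Abca1, a cholesterol exporter, at 12.8 CPM in WT-ND, 7.17 CPM in WT-HFD, 24.3 CPM in SP-ND and 9.81 CPM in SP-HFD, and Mbtps2, a protease that cleaves SREBPs, at 8.64 CPM, 5.53 CPM, 9.79 CPM and 6.18 CPM in that order. Higher on HFD in both genotypes were Lpin1, a phosphatidate phosphatase, at 18.4 CPM, 30.3 CPM, 19.8 CPM and 35.9 CPM, and Aacs, which activates acetoacetate for lipid synthesis, at 37.7 CPM, 60.0 CPM, 37.3 CPM and 72.1 CPM.

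Across classes, PT-like cells were not the only cells rich in the sterol genes, but in SP-ND they had the highest sum of the 11 classes. In WT-ND the sterol sum was highest in thin limb-like cells (768 CPM), followed by distal convoluted tubule-like (638 CPM), intercalated-like (622 CPM) and PT-like cells (578 CPM), and lowest in T or NK-like cells (326 CPM). In SP-ND the PT-like sum of 957 CPM was followed by 784 CPM in distal convoluted tubule-like cells. The fatty acid sum was highest in PT-like cells in every library and next highest in principal and connecting tubule-like cells, which held 886 CPM in WT-ND and 1342 CPM in SP-ND. This order rests on few genes. Without Idh1 and Me1 the PT-like sum was 283 CPM in WT-ND and 432 CPM in SP-ND. Scd2 alone exceeded that in principal and connecting tubule-like cells, at 562 CPM and 934 CPM. PT-like cells had the highest level of the 11 classes in all 4 libraries for Acat2, Mvd, Cyp51, Nsdhl, Acss2, Fads2, Me1 and Idh1. Endothelial-like cells did so for Acly, Scd1 and Elovl5, podocyte-like cells for Ebp and Dhcr7, intercalated-like cells for Pmvk, and thick ascending limb-like cells for Scap. Scd1 was at 47.1 CPM in WT-ND, 25.0 CPM in WT-HFD, 37.8 CPM in SP-ND and 23.8 CPM in SP-HFD in endothelial-like cells. Principal and connecting tubule-like cells led for Scd2, at 562 CPM, 381 CPM, 934 CPM and 430.3 CPM, and for Srebf1, at 33.03 CPM, 52.2 CPM, 58.8 CPM and 50.5 CPM in the same order.

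**Figure D4:**
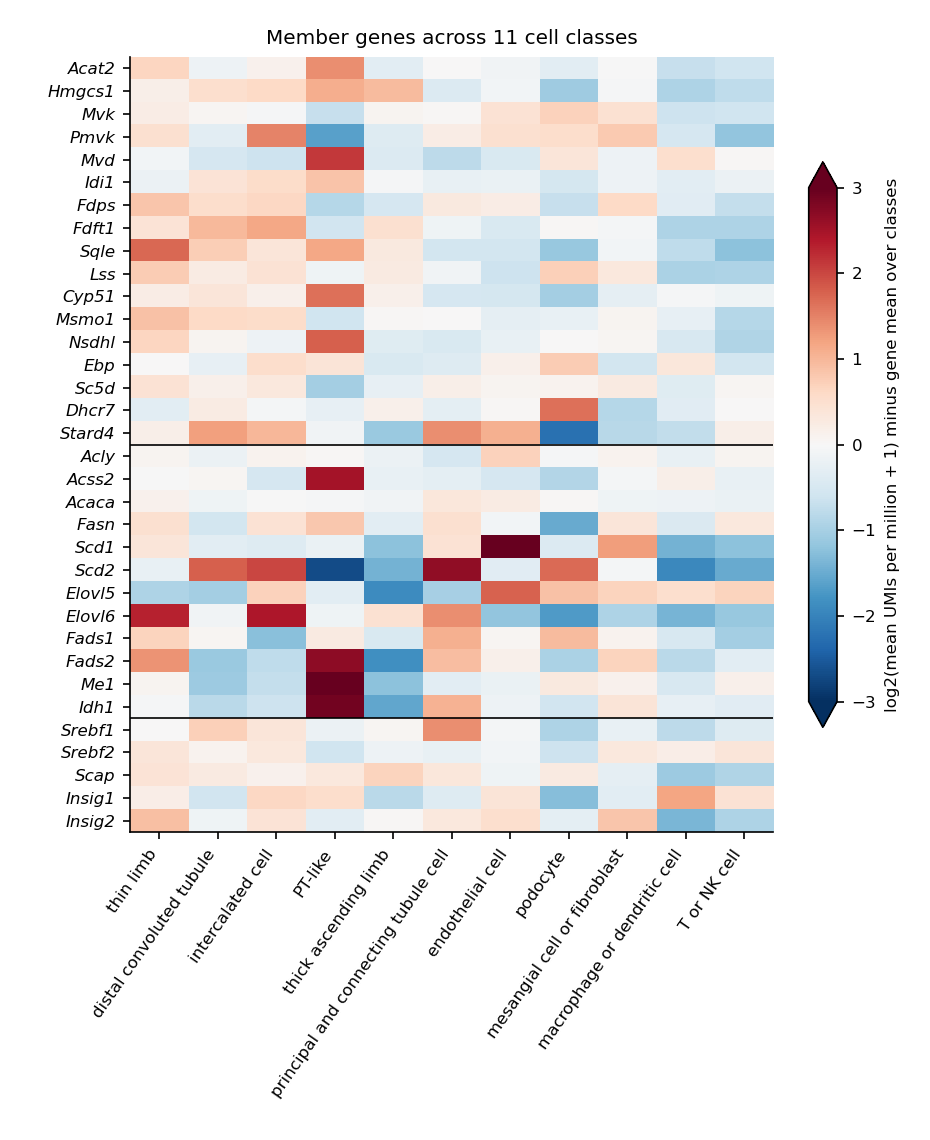
Level of each member in 11 cell classes, as log2(mean CPM over the 4 libraries + 1) minus the gene's mean over classes, with red above and blue below that mean and colours limited to the range of the bar. Idh1, Me1, Acss2 and Fads2 are red in PT-like cells, and Scd2 is blue there and in thick ascending limb-like cells but red in distal convoluted tubule-like, principal and connecting tubule-like, intercalated-like and podocyte-like cells.

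Lower sterol levels on HFD were found in several distal classes in both genotypes. In thick ascending limb-like cells the sum was 535 CPM in WT-ND, 370.2 CPM in WT-HFD, 532 CPM in SP-ND and 429 CPM in SP-HFD, with log2 ratios of HFD to ND of −0.53 (−0.61 to −0.46) in WT and −0.31 (−0.37 to −0.24) in SP. Of 31 members compared there, 17 were at least 1.5-fold lower on HFD in WT, against 5.09% of genes, and 9 in SP, against 2.8%, while 0 were higher in SP-ND than in WT-ND, against 2.36%. In that last comparison 3 of the 31 were lower in SP-ND, against 261 of 9265 genes. In distal convoluted tubule-like cells the sum was 638 CPM, 472 CPM, 784 CPM and 448 CPM, and 10 of 31 members were lower on HFD in WT (3.28% of genes) and 19 in SP (3.37%), with 5 higher in SP-ND than in WT-ND (2.88%). In principal and connecting tubule-like cells the sum was 477 CPM, 335 CPM, 593 CPM and 369 CPM, and 6 of 32 members were lower on HFD in WT (10.1% of genes) and 17 in SP (5.51%), with 6 higher in SP-ND (4.06%). Sqle in thick ascending limb-like cells was at 27.0 CPM in WT-ND, 14.3 CPM in WT-HFD, 30.0 CPM in SP-ND and 14.5 CPM in SP-HFD. There ND was higher than HFD in both genotypes and the ND libraries were alike, unlike Sqle in PT-like cells.

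Other classes differed in extent. In intercalated-like cells the sterol sum was 622 CPM in WT-ND, 628 CPM in WT-HFD, 725 CPM in SP-ND and 727 CPM in SP-HFD. In this sum the genotypes were apart and the diets were not. Of 31 members, 2 were at least 1.5-fold higher in SP-ND than in WT-ND and 1 lower (156 and 514 of 9612 genes). On HFD 4 were higher and 5 lower in WT (465 and 784 genes). In SP 0 were higher and 4 lower on HFD (637 and 460 genes). In podocyte-like cells it lay between 398 and 417 CPM in the 4 libraries, and 3 of 30 members were at least 1.5-fold higher in SP-ND than in WT-ND (4.23% of genes), while 4 were lower on HFD in WT (10%) and 5 in SP (8.19%). Of the same 30 members, 5 were lower in SP-ND than in WT-ND, against 873 of 9271 genes. Endothelial-like cells had 455 CPM in WT-ND, 436 CPM in WT-HFD, 555 CPM in SP-ND and 399 CPM in SP-HFD, with 17 of 32 members lower on HFD in SP (6.2% of genes) and 5 in WT (7.3%), and 4 higher in SP-ND than in WT-ND (5.58%). Mesangial or fibroblast-like cells had 405 CPM, 427 CPM, 599 CPM and 365 CPM, with 10 of 33 members higher in SP-ND than in WT-ND (12.4% of genes). On HFD 6 of the 33 were lower in WT (20.2%) and 17 in SP (12.3%). The log2 ratio of SP-ND to WT-ND of the sterol sum was 0.56 (0.39 to 0.73) in these cells, 0.35 (0.14 to 0.55) in macrophage or dendritic-like cells and −0.37 (−0.54 to −0.21) in thin limb-like cells, so the PT-like value of 0.73 was the widest of the 11 classes. In thin limb-like cells 3 of 33 members were at least 1.5-fold higher in SP-ND than in WT-ND (1092 of 10106 genes). There 8 were lower (1267 of 10106 genes). PT markers outside tubule cells stood at 17.5% to 23.5% of their level over all kept cells, which gauges the free PT RNA that every class may hold.

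**Figure D5:**
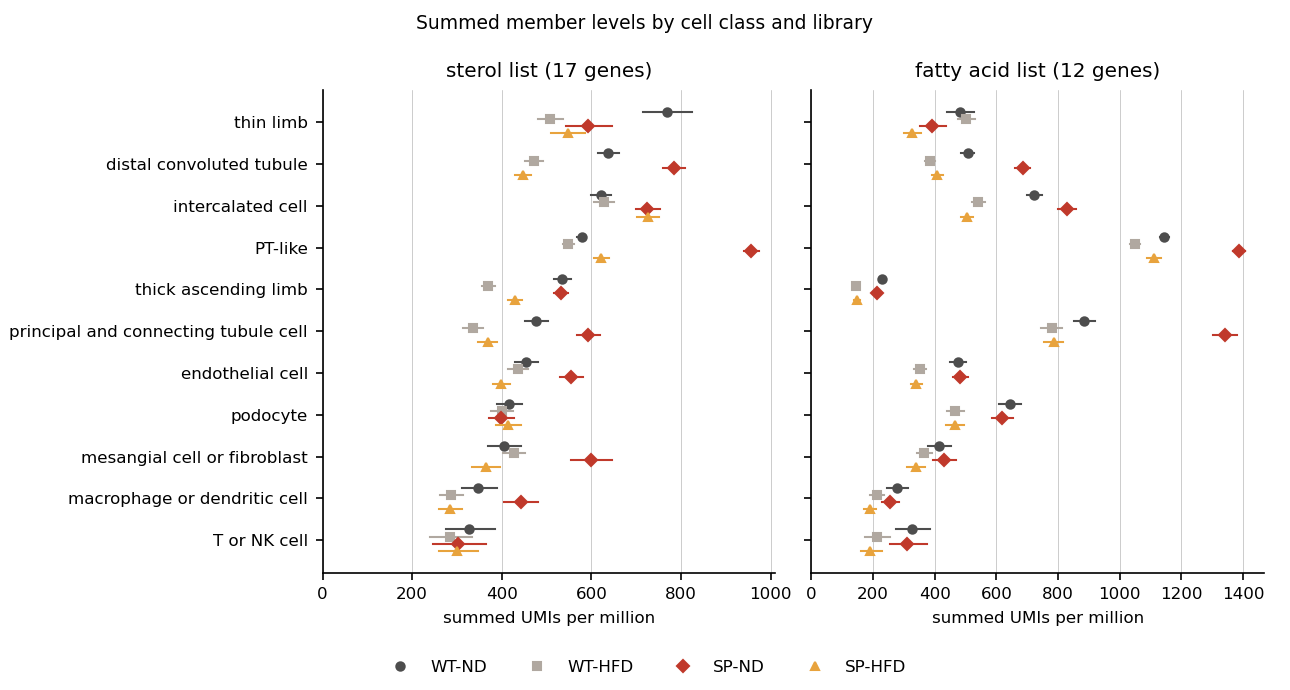
Summed counts-per-million (CPM) of the 17 sterol genes (left) and 12 fatty acid genes (right) in 11 cell classes, ordered by the sterol sum in WT-ND, with 1 point per library and bars for the 95% Poisson interval. SP-ND stands apart in PT-like cells for the sterol genes, at 957 CPM, and in principal and connecting tubule-like cells for the fatty acid genes, at 1342 CPM. Of that last sum, Scd2 alone made up 934 CPM.

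A cluster of 843 cells, 809 of them from WT-HFD, was kept out of the PT-like class. The rule considered only clusters with at least 1% of kept cells and PT markers above other cells on average. Among those it took the highest mean of 9 genes (Epcam, Mal, Cryab, Spp1, Ckb, Wfdc2, Defb1, Tmsb4x and Tmem213). These genes were taken as marks of the PT cells that the study ties to HFD. In WT-HFD the sterol sum of the cluster was 459 CPM, against 548 CPM in PT-like cells, and its fatty acid sum 609 CPM, against 1049.6 CPM. Scd2 was at 62.2 CPM in these cells and 4.54 CPM in PT-like cells, Pmvk at 24.4 CPM and 4.80 CPM, Elovl6 at 16.5 CPM and 4.61 CPM, and Fdps at 32.0 CPM and 11.8 CPM. Intercalated-like cells of WT-HFD held more of each, at 251 CPM, 80.0 CPM, 71.3 CPM and 54.4 CPM in that order. The part of RNA from such cells in the cluster was not tested. Cyp51, Acss2, Fads2, Me1 and Idh1, which were most abundant in PT-like cells, were lower in the cluster, with Idh1 at 239 CPM against 491 CPM and Cyp51 at 50.4 CPM against 108 CPM. These cells were picked as a cluster of the same data, so the values are a description. Its other libraries held 5 to 20 cells and were not compared. Without integration the same rule took a different cluster, of 2788 cells, 2757 of them from WT-HFD. Its PT markers were barely above those of other cells, by a mean log2 of 0.049. The size and makeup of the cluster thus depended on integration, and the values above hold for the integrated one.

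Over the 44 groups of class and library, the genes outside these lists whose level went most closely with the sterol sum were Fech, the last enzyme of heme synthesis (Pearson's r = 0.80), Golga4 (0.79), Opa1 (0.79), Psme4 (0.77) and Mmut (0.77), of 6209 genes ranked. The fatty acid sum went most closely with Slc25a1, the mitochondrial citrate carrier that feeds fatty acid synthesis (0.82), Ndrg1 (0.80), Htt (0.79), St13 (0.79) and Abca3 (0.78). Groups share libraries, depth and class makeup, so these values describe the pattern only.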

How the data were processed

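Droplet-based libraries (10x Genomics, 3′ chemistry) were counted by the authors with Cell Ranger, and raw UMI counts per gene and barcode were deposited, without normalization. The version differs between sources: the file headers name 6.1.2, the submitters' processing notes 2.1.1, with mm10 as the build, and the study's methods yet another version. Removal of doublets or free RNA before deposit is not given in the sources used here. The libraries held 90728590 to 115117649 UMIs.

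Following the study's methods, barcodes needed 200 to 5000 genes and less than 50% of UMIs from mitochondrial genes, and genes had to be found in at least 3 cells. The 0.8% per 1000 cells with the highest share of simulated doublets among 50 neighbours were removed, a rough stand-in for the study's doublet steps. Counts were log-normalized, integrated by CCA and clustered at a resolution of 0.5 on 50 components of 2000 variable genes without the members (Seurat 5.3.0, R 4.3.3). Clusters were named from marker lists, and a name can therefore differ from the study's. The requirement of 3 markers among the top 10 genes for erythroid cells was added with the clusters in view. Counts were then summed per class and library with Python 3.11.15, numpy 2.4.6, scipy 1.17.1 and pandas 2.3.3, and ratios were given exact conditional binomial 95% intervals. Intervals were tested only on simulated Poisson counts, the distribution that they assume. That test cannot show how they hold where UMIs gather in few cells, as for Scd2 in SP-ND. Figures were drawn with matplotlib 3.10.9.

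Groups are the genotypes and diets of the labels, where ND is the diet of the titles without HFD. All 34 members are named. Of the other pathway genes, those past 1.5-fold in the same direction on HFD in both genotypes are named, except for an item that is not reported here. The members and lists were chosen with earlier results of these data known. No additive fit with terms for diet and for genotype was made. Alternatives changed the clustering, the cell filters, the scaling, the free RNA, the cells pooled and the thresholds.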

Additional observations from a re-analysis of the deposited data

Results flagged for a closer look

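For 2 members the log2 ratio of HFD to ND in PT-like cells had opposite signs in the genotypes, with both intervals clear of 0. For Nsdhl it was 0.39 in WT and −0.35 in SP, and for Scd2 it was 0.67 in WT and −4.13 in SP. The SP difference of Nsdhl lay in the Slc5a12-led cluster, at 86.9 CPM in SP-ND and 54.5 CPM in SP-HFD. In the Slc7a13-led cluster Nsdhl was at 66.2 CPM and 64.7 CPM, with overlapping intervals. With 1 library per condition the difference between the genotypes was not tested. Scd2 had 61 UMIs in WT-ND and 69 in WT-HFD, so its WT ratio rests on few counts. Without integration this WT ratio was −0.43, so the opposite sign of Scd2 depends on the clustering. The 17 markers of distal, connecting and principal tubule and intercalated cells summed to 459 CPM in WT-HFD PT-like cells with 1 or 2 Scd2 UMIs. In WT-HFD cells with no Scd2 UMI they summed to 178 CPM. In WT-ND these sums were 131 CPM and 120 CPM. The part of such RNA in the WT ratio of Scd2 was not tested.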

How the results depend on the processing

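No paired analysis was possible because each condition had 1 library. No group has a library to leave out. In PT-like cells every log2 ratio of the sterol and fatty acid sums kept its sign under the alternatives run. Cells of at least 1000 UMIs and centring on the median of all genes moved none of the sums or counts. Having no minimum level moved none of the sums. It lets in Scd1, which was past 1.5-fold for HFD to ND in WT and for SP to WT on both diets. The cause of the moves below was not tested, unless the alternative changes the cells or the threshold by construction.

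With cells under 30% mitochondrial UMIs, the sterol ratio was −0.53 for HFD to ND in SP and 0.26 for SP to WT on HFD, and the fatty acid ratio −0.20 for HFD to ND in WT and 0.23 for SP to WT on ND, while Hmgcs1 (−0.00416) and Elovl5 (−0.052) turned for SP to WT on ND. Over UMIs outside mitochondrial genes, the sterol ratio was −0.72 for HFD to ND in SP and 0.82 for SP to WT on ND, the fatty acid ratio −0.42 and 0.37, and Me1 turned to 0.011 on ND. As a mean over cells, the sterol ratio was 0.80 for SP to WT on ND and 0.28 on HFD, the fatty acid ratio 0.31 and 0.035 (−0.40 for HFD to ND in SP), 6 members passed 1.5-fold for SP to WT on HFD, and Idh1 turned to −0.046 there. With 10% of UMIs subtracted as free RNA, the sterol ratio for SP to WT on ND was 0.77 and 1 member passed on HFD. The 10% was a fixed share, and no other share was tried. It lies above the share of ambient RNA that the study reports. It lies below the 17.5% to 23.5% at which PT markers stood outside tubule cells. Without integration 1 member passed on HFD, and Scd2 turned to −0.43 for HFD to ND in WT and 0.21 for SP to WT on HFD. With the 843 cells added, the sterol ratio was −0.16 for HFD to ND in WT and 0.26 for SP to WT on HFD, the fatty acid ratio −0.34 and 0.30, 6 members passed on HFD, and Pmvk (0.68), Fdps (0.24) and Acss2 (−0.12) turned for HFD to ND in WT. At 2-fold, 3 members passed for HFD to ND in WT, 13 for SP to WT on ND and 0 for SP to WT on HFD.

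Further settings were chosen after seeing the data. In the Slc5a12-led cluster the sterol ratio was −0.022 for HFD to ND in WT, −0.93 in SP and 1.08 for SP to WT on ND, the fatty acid ratio −0.082, −0.37 and 0.36, and 1 member passed on HFD. Cyp51 turned to −0.54 for HFD to ND in SP, and Me1 to 0.017 for HFD to ND in WT and 0.035 for SP to WT on ND. In the Slc7a13-led cluster the sterol ratio was −0.40 for HFD to ND in SP, 0.42 for SP to WT on ND and 0.13 on HFD, and the fatty acid ratio −0.16 for HFD to ND in WT, −0.26 in SP and 0.20 for SP to WT on ND. Hmgcs1 (−0.20), Mvd (−0.0062) and Sc5d (−0.11) turned for SP to WT on ND, and Sqle turned for HFD to ND in WT (0.25) and SP to WT on HFD (−0.083). In cells of 10000 to 20000 UMIs the sterol ratio was −0.12 for HFD to ND in WT, −0.74 in SP and 0.10 for SP to WT on HFD. There Pmvk (0.18) and Scap (−0.15) turned for HFD to ND in WT, Idi1 (−0.10) for SP to WT on HFD and Acly (−0.052) for SP to WT on ND. Members under 10 CPM rest on few UMIs, and no value has a replicate error.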
